A study of Mus musculus with 2 samples.

Results

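The genes described here are those of the cytokines IL-12, IL-15 and IL-27 and of their receptors: Il12b, Il27, Ebi3, Il15, Il15ra, Il12rb1, Il12rb2, Il27ra, Il2rb and Il2rg. They were chosen by symbol, and all 10 were found among the 32285 genes of the deposited count tables. White blood cells (viable, CD45-positive) had been sorted, 14 days after injection, from tumours grown under the skin from the mouse melanoma line B16-F10, and sequenced as single cells in droplets. The FDPS-KO group had B16-F10 tumours lacking the mevalonate pathway enzyme FDPS, or farnesyl diphosphate synthase, and the WT group had B16-F10 tumours without that knockout. Each group had 3 tumours and gave 1 library, with no map from cells to tumours. The host strain, the guide, the number of knockout clones and any treatment are not given in the sources used here. The knockout is described for the engrafted tumours, and the sort kept CD45-positive cells. Because there is 1 library per group, no test between groups was possible, and each difference below is one between 2 libraries. Intervals are 95% counting intervals (exact Poisson for levels, exact Clopper-Pearson for shares, exact conditional binomial for ratios of levels) and cover counting error only.

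IL-12 is a pair of chains, p40 from Il12b and p35 from Il12a, made by activated dendritic cells (DCs) and phagocytes, and its receptor pairs Il12rb1 with Il12rb2 on NK and T cells, where it signals through STAT4 toward interferon-gamma. IL-15 is held on the surface of the cell that makes it by the alpha receptor Il15ra, and is passed to neighbouring NK and memory CD8 T cells that carry Il2rb and the common gamma chain Il2rg. IL-27 pairs the p28 chain of Il27 with Ebi3, comes from myeloid cells, and is read by Il27ra together with the shared chain Il6st.

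Levels are unique molecular identifiers (UMIs, each a counted RNA molecule) summed over the cells of a type and library and scaled by the total UMIs of those cells to CPM, the usual depth-scaled unit. They are not divided by gene length, so a level is compared between libraries and cell types and not between genes. Ratios are FDPS-KO over WT, and log2 ratios are of CPM plus 5. A gene was compared in a type where the mean of both libraries was at least 10 CPM and both held at least 100 cells, and was called at a 2-fold difference. Of 57 pairs of a gene and a type compared in 10 types, 5 were at least 2-fold higher in FDPS-KO, 3 were at least 2-fold lower, and 49 were within 2-fold. Of all genes compared in a type, 0.809% (NK cells) to 7.43% (mature DCs) were called higher. From 0.704% (cDC1) to 8.3% (other phagocytes) were called lower. The share of each type is given with its results.

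The libraries held 9130 barcodes and 127186298 UMIs (FDPS-KO) and 10882 barcodes and 208936136 UMIs (WT), with 30 barcode sequences present in both. After filters 8062 FDPS-KO and 8595 WT cells remained, of which 16 and 308 were melanoma cells. Fdps stood at 89.4 CPM in the FDPS-KO melanoma cells and at 408 CPM in the WT melanoma cells, and it was also lower in FDPS-KO in many immune types, for example 27.4 against 78.0 CPM in CD8 T cells. Cell types were set by marker genes, none of them a gene described here. Macrophages made up 7.99% of FDPS-KO and 34.0% of WT immune cells, and NK cells 8.95% and 2.96%. Monocytes, macrophages, other phagocytes and CD8 T cells of the libraries lay mostly in different expression clusters, and cluster values are given where a result rests on these types.

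On GRCm38 (GENCODE annotation), Il12b lies on chromosome 11 at 44400063 to 44414033, Il27 on 7 at 126589010 to 126594941 and Ebi3 on 17 at 55952640 to 55957022. Il15 lies on chromosome 8 at 82331632 to 82403222 and Il15ra on 2 at 11705290 to 11734317. Of the receptor genes, Il12rb1 lies on chromosome 8 at 70808449 to 70821424, Il12rb2 on 6 at 67291318 to 67376188, Il27ra on 8 at 84030294 to 84042589, Il2rb on 15 at 78479256 to 78495271 and Il2rg on X at 101264378 to 101268255. Counts are per whole gene and do not separate exons from introns here. Long genes were relatively higher in FDPS-KO in each of the 10 types. In mature DCs the longest 25% of genes had a median log2 ratio of 0.52 and the shortest 25% one of -0.33, and in CD8 T cells these were 0.56 and -0.27. Il12rb2 spans 84.9 kb, Il15 71.6 kb and Il15ra 29.0 kb, while the other 7 genes span 3878 to 16016 bases. With the median of genes of like span subtracted, the log2 ratio of Il12rb2 was -2.43 in mature DCs, -0.79 in cDC2 and -0.55 in NK cells, and that of Il15ra was 0.24 in mature DCs. Others are given beside the results.

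Promoter sequences are shown for 3 of the genes on which the results turn, the IL-12 chain Il12b, the IL-27 chain Ebi3 and the IL-12 receptor chain Il12rb2. They are the 250 bases before the annotated start, from RefSeq on GRCm38.p6, and 5 of the 10 genes were matched to that table by symbol. The Il12b window lies at chr11:44399813-44400062 on the plus strand, Ebi3 at chr17:55952373-55952622 on the plus strand and Il12rb2 at chr6:67376189-67376438 on the minus strand. Capitals mark matches to 6 motifs searched on both strands: the kappa-B consensus, ISRE (GAAA, any 2 bases, GAAA), C/EBP (TTGCNNAA), AP-1 (TGANTCA), GAS (TTCNNNGAA) and T-box (GGTGTGA).
Il12b: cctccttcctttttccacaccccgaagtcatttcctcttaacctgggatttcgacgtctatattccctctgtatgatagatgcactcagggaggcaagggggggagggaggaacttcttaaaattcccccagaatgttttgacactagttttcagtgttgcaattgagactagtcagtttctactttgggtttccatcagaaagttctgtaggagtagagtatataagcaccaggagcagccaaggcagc
Ebi3: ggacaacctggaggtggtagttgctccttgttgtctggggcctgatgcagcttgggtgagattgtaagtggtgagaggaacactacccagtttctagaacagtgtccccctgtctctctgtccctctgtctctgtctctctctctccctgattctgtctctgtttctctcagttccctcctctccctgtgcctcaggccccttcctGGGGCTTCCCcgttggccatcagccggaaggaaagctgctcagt
Il12rb2: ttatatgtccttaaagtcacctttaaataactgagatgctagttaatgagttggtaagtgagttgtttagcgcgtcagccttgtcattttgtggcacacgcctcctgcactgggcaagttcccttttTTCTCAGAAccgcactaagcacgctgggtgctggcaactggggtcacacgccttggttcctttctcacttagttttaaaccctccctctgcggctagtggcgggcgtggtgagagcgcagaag
Ebi3 had 1 kappa-B match, 44 to 35 bases before the start, and Il12rb2 had 1 GAS match, 123 to 115 bases before it. No 2 matches overlapped. The Il12b window held no exact match to the 6 motifs. Sites that depart from these letters were not searched, so this does not show that the window lacks such sites. Of all 32851 promoters of that length, 7.25% held a kappa-B match and 7.02% a GAS match, and a match is a description of these letters only.

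**Figure D1:**
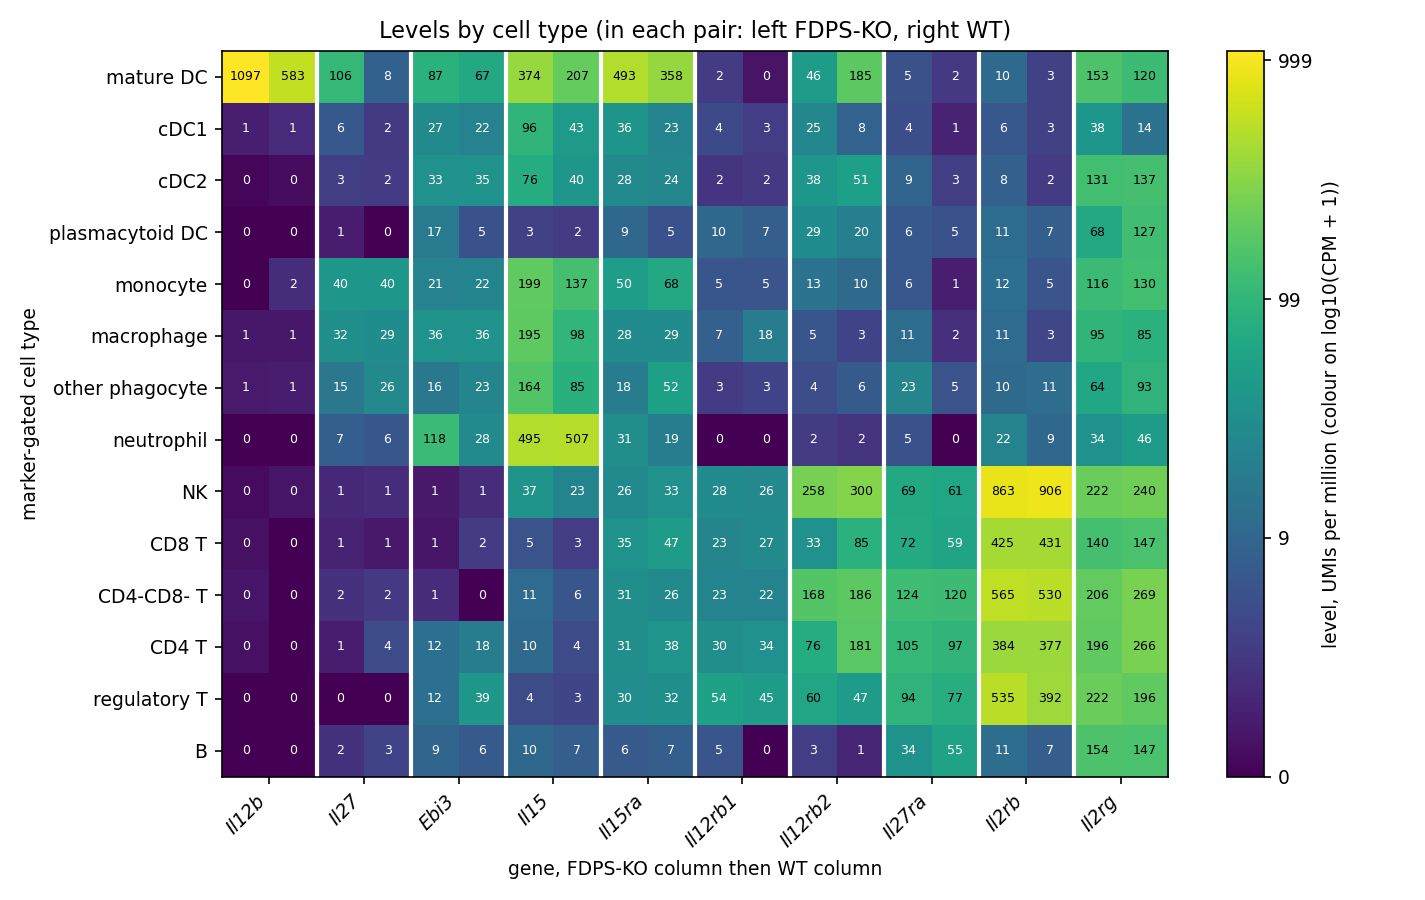
Levels of the 10 genes in 14 cell types, in CPM (numbers in the cells, colour on a log scale), with FDPS-KO in the left and WT in the right column of each pair. Il12b stands out in mature DCs (1097 and 583 CPM) and Il15 in mature DCs, phagocytes and neutrophils. Il2rb stands out in NK and T cells, and Il12rb2 in NK cells, T cells and WT mature DCs.

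Mature DCs were the source of Il12b. These are DCs with Ccr7, Fscn1, Ccl22 and Il4i1, and 93.3% of the FDPS-KO and 99.4% of the WT cells so gated lay in the same cluster (25), of which Il12b is itself a leading gene. Il12b stood at 1097 CPM (1048 to 1147) in 120 FDPS-KO mature DCs and at 583 CPM (553 to 615) in 158 WT mature DCs, a ratio of 1.88 (1.75 to 2.02) and a log2 ratio of 0.90, which is under the 2-fold limit. The log2 ratio ran from 0.25 with a stricter mitochondrial limit to 1.59 with expression clusters in place of gates. The clusters took in 1 FDPS-KO cell with 1379 Il12b UMIs, described below, which the gate left out. In no other gated type was Il12b above 1.52 CPM, the value of WT monocytes. Of mature DCs, 48 of 120 in FDPS-KO (interval of the share 31.2 to 49.3%) and 72 of 158 in WT (37.6 to 53.7%) had at least 1 Il12b UMI, against 0.278% and 0.408% of NK cells, a type that should lack it (median UMIs per cell 14508 and 13222 in mature DCs, 10664.5 and 7576 in NK cells). With each cell thinned to 3000 UMIs the shares in mature DCs were 31.9% and 30.3%. The libraries thus differed in the amount per positive cell: the median positive mature DC held 9.12 Il12b UMIs per 10000 in FDPS-KO and 4.12 in WT, with ranges that overlapped widely up to 174 and 136.

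Il12b UMIs were concentrated in few cells. In FDPS-KO 88 cells and in WT 103 cells of the whole library had any, 30 and 29 had at least 10, and the 10 highest cells held 78.4% and 60.6% of all Il12b UMIs. A single FDPS-KO cell held 1379 of the 3494 Il12b UMIs of its library (39.5%), whereas the highest WT cell held 193 of 1429 (13.5%). The FDPS-KO cell lay in the mature DC cluster, had 73631 UMIs in all, and fell just short of the mature DC limit (score 0.68 against a limit of 0.8), so it is among the ungated cells and in none of the mature DC levels. It was also among the dividing cells, and the median FDPS-KO mature DC had 14508 UMIs. Mature DCs held 53.7% of Il12b UMIs in FDPS-KO and 94.4% in WT. Without the highest cell of each library these shares were 88.7% and 93.5%.

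The mature DCs of the libraries also differed in the markers of cDC1, the DC subset that cross-presents antigen to CD8 T cells. All 6 cDC1 markers had UMIs in both libraries, and their summed level was 614 CPM in FDPS-KO and 104 CPM in WT mature DCs. The lowest of the 6 stood at only 1.17 and 0.433 CPM, and a mean of 1.36 and 0.525 of them were detected per cell. The sum therefore does not show that each marker was higher. Summed monocyte markers stood at 49.7 and 284 CPM and macrophage markers at 45.0 and 185 CPM. Macrophage markers were also lower in FDPS-KO in types that should lack them, at 29.2 and 244 CPM in NK cells and 27.2 and 121 CPM in CD8 T cells. Of mature DCs, 72 of 120 in FDPS-KO and 43 of 158 in WT had more UMIs of the cDC1 than of the cDC2 list. In these cells Il12b stood at 1692 CPM (1614 to 1773) and 820 CPM (755 to 889), and they held 94.3% and 44.0% of the Il12b UMIs of mature DCs. In mature DCs with more UMIs of the cDC2 list, Il12b had 0 UMIs in 9 FDPS-KO cells and stood at 376 CPM in 33 WT cells. In those with equal UMIs of the lists it stood at 212 CPM in 39 FDPS-KO and 529 CPM in 82 WT cells. Il12b was thus higher in FDPS-KO only in the cells with more cDC1 list UMIs, and lower in the other 2 subsets. This split was chosen after the levels were seen, and its part in the difference was not tested.

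The p35 chain Il12a, without which p40 does not form IL-12, had 0 UMIs in mature DCs of both libraries, which allows up to 1.75 CPM in FDPS-KO and 1.30 CPM in WT at 3 UMIs. Il23a, which pairs with p40 to form IL-23, also had 0. The B cells had Il12a at 19.3 CPM in FDPS-KO and 18.8 CPM in WT, and the neutrophils had Il23a at 55.2 and 74.3 CPM.

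**Figure D2:**
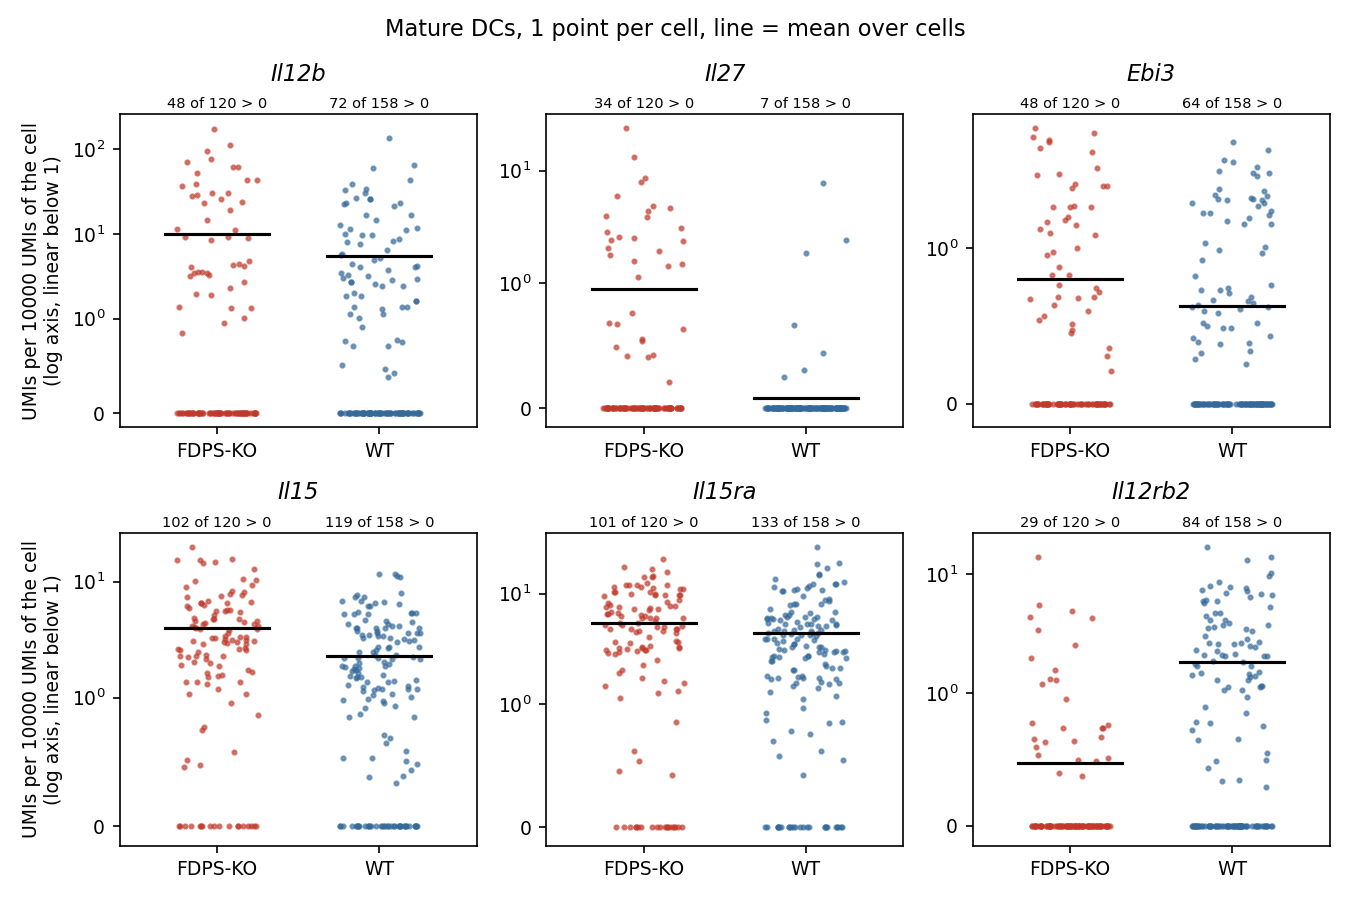
Il12b, Il27, Ebi3, Il15, Il15ra and Il12rb2 in single mature DCs, in UMIs per 10000 UMIs of the cell (log axis, linear below 1), 1 point per cell with the mean as a line, FDPS-KO left and WT right. Il27 was detected in 34 of 120 FDPS-KO and 7 of 158 WT cells and Il12rb2 in 29 and 84, while the ranges of Il15, Il15ra and Ebi3 overlap.

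Il27, the p28 chain of IL-27, showed the largest ratio of the 57 pairs in mature DCs. It stood at 106 CPM (91.0 to 122) in FDPS-KO and 7.79 CPM (4.61 to 12.3) in WT mature DCs, a ratio of 13.6 (8.36 to 23.5) and a log2 ratio of 3.12. A UMI was seen in 28.3% of FDPS-KO and 4.43% of WT mature DCs, in 11.2% and 1.29% after thinning, and in 1.39% and 1.22% of NK cells. The highest single cell held 19.9% of these UMIs in FDPS-KO and 38.9% in WT, and without it the log2 ratio was 3.22. It was higher in each of the subsets above, with 128 and 20.7 CPM in the cells with more cDC1 list UMIs. Of the 7 genes compared in mature DCs, 1 (Il27) was called higher, where 7.43% of 7546 genes were, and 1 (Il12rb2) was called lower, where 5.19% were. Their median log2 ratio was 0.46, and that of all genes 0.15.

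In the phagocytes, which held most Il27 UMIs, no such difference was called. Il27 stood at 39.5 CPM in FDPS-KO and 39.7 CPM in WT monocytes, 31.9 and 29.3 CPM in macrophages, and 15.2 and 26.1 CPM in other phagocytes (cells with markers of several phagocyte types). Phagocytes held 54.1% of Il27 UMIs in FDPS-KO and 95.8% in WT, and DCs 25.9% and 1.37%. Over the whole library Il27 was lower in FDPS-KO, at 8.47 against 17.2 CPM, with fewer macrophages in that library. In the only macrophage cluster with at least 50 cells of both libraries (18, led by Cd163), Il27 stood at 37.6 CPM in 283 FDPS-KO and 5.26 CPM in 95 WT cells, a log2 ratio of 2.05. Split by marker instead, the direction was the other way in macrophages with a Cd163 UMI, 136 in each library. These had 9.33 CPM in FDPS-KO and 14.4 CPM in WT, and macrophages without a Cd163 UMI had 38.4 and 30.5 CPM. The highest levels by cluster were 51.0 CPM in FDPS-KO macrophages of cluster 8 and 56.1 CPM in WT monocytes of cluster 10. The ranges over clusters overlapped.

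Ebi3, the partner chain of p28, was within 2-fold in mature DCs. It stood at 86.6 CPM (73.2 to 102) in FDPS-KO and 67.0 CPM (56.9 to 78.5) in WT mature DCs, a ratio of 1.29, with an upper bound of 1.63. In the 6 types where it was compared its log2 ratio ran from -0.45 in other phagocytes to 0.35 in mature DCs, and none was called. Levels in cDC1, cDC2 and macrophages were 26.7, 33.5 and 35.8 CPM in FDPS-KO and 21.6, 35.1 and 35.6 CPM in WT. With fewer than 100 cells in a library, neutrophils had 118 CPM in 82 FDPS-KO and 27.9 CPM in 112 WT cells, and regulatory T cells 11.7 CPM in 159 FDPS-KO and 39.2 CPM in 71 WT cells. In macrophages of cluster 18 Ebi3 stood at 49.6 CPM in FDPS-KO and 26.3 CPM in WT, and in those with a Cd163 UMI at 32.1 and 20.7 CPM. After thinning, 3 of 50 FDPS-KO and 30 of 195 WT macrophages with Il27 also had Ebi3, against 9.60% and 9.63% of those without Il27. In monocytes it was 3 of 24 and 2 of 104, against 4.44% and 5.93%.

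**Figure D3:**
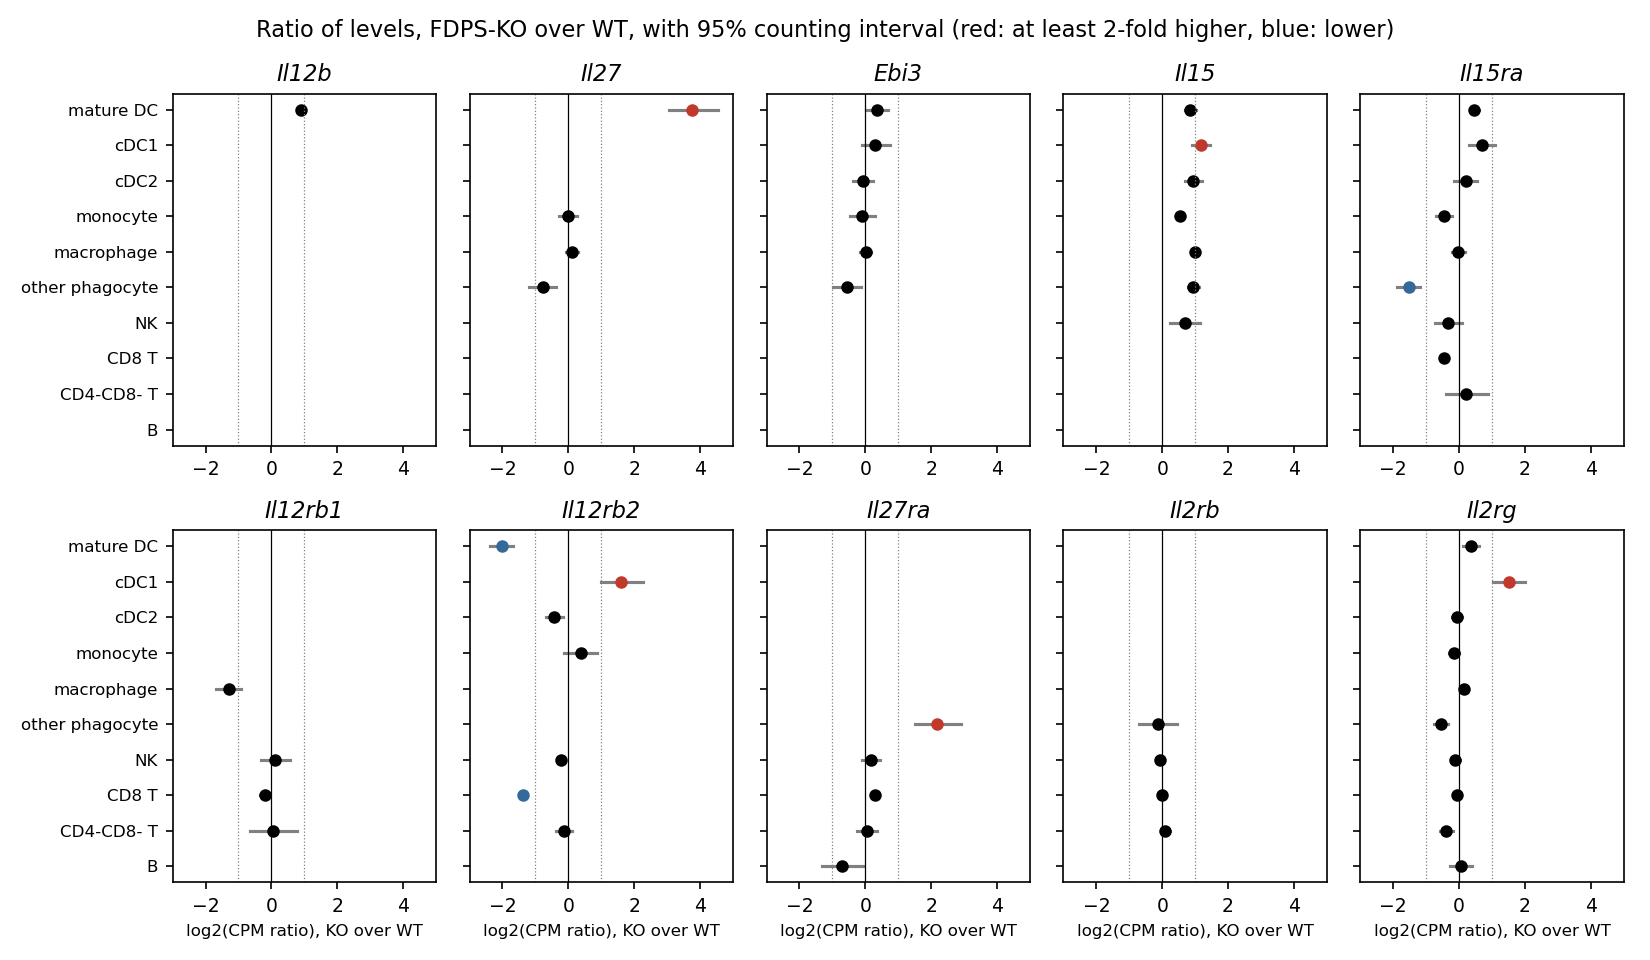
Ratio of levels (FDPS-KO over WT, log2 of the CPM ratio without the added 5, with 95% counting interval) for the 57 pairs compared. Red marks pairs called at least 2-fold higher and blue at least 2-fold lower on log2 of CPM plus 5, so that Il12rb1 in macrophages passes -1 here without a call. Il15 lies right of 0 in each of its 7 types.

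Il15 was higher in FDPS-KO in each of the 7 types where it was compared. It stood at 374 CPM (345 to 404) in FDPS-KO and 207 CPM (189 to 226) in WT mature DCs, a ratio of 1.81, with an upper bound of 2.04. In cDC1 the levels were 96.2 and 42.5 CPM, a ratio of 2.26 (1.87 to 2.75) and the single Il15 call. In cDC2 they were 76.3 and 39.8 CPM, with a ratio of 1.92 (1.61 to 2.29). Macrophages had 195 CPM in FDPS-KO and 98.3 CPM in WT, with a ratio of 1.98 (1.88 to 2.09), and other phagocytes 164 and 85.1 CPM, with a ratio of 1.93 (1.71 to 2.18). The ratio was smaller in monocytes (199 and 137 CPM, 1.46) and in NK cells (36.7 and 22.9 CPM, 1.61). Neutrophils, with the highest Il15 level of any type in both libraries, had 495 CPM in 82 FDPS-KO and 507 CPM in 112 WT cells. Il15 lies in the same class of genes by span in these 7 types, and with the median of that class subtracted its log2 ratios were 0.46 in mature DCs, 0.79 in cDC1, 0.55 in cDC2, 0.19 in monocytes, 0.71 in macrophages, 0.83 in other phagocytes and 0.33 in NK cells. All 7 stayed above 0 in each alternative run, and the cDC1 call held in 8 of 12, the subtraction being one that ended it.

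Within clusters shared by the libraries, Il15 stood at 182 CPM in FDPS-KO and 101 CPM in WT macrophages of cluster 18, and at 67.3 and 41.6 CPM in cDC2 of cluster 20. In macrophages with a Cd163 UMI it stood at 192 and 79.5 CPM. In monocytes of cluster 9, the one monocyte cluster with at least 50 cells of both, it stood at 100 and 95.1 CPM, and in NK cells of cluster 0 at 37.4 and 21.9 CPM. The other macrophage and monocyte clusters had at least 50 cells in 1 library only. FDPS-KO macrophages of clusters 8 (Il1b, Ptgs2) and 16 (Retnla) had 228 and 177 CPM, and WT macrophages of 7 clusters besides 18 had 35.7 to 137 CPM. Among these monocyte and macrophage clusters the highest level was in WT monocytes of cluster 32 (led by Chil3), at 255 CPM. Phagocytes held 50.1% of Il15 UMIs in FDPS-KO and 85.4% in WT, and DCs 28.7% and 7.99%. Over the whole library Il15 stood at 60.8 and 64.9 CPM.

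**Figure D4:**
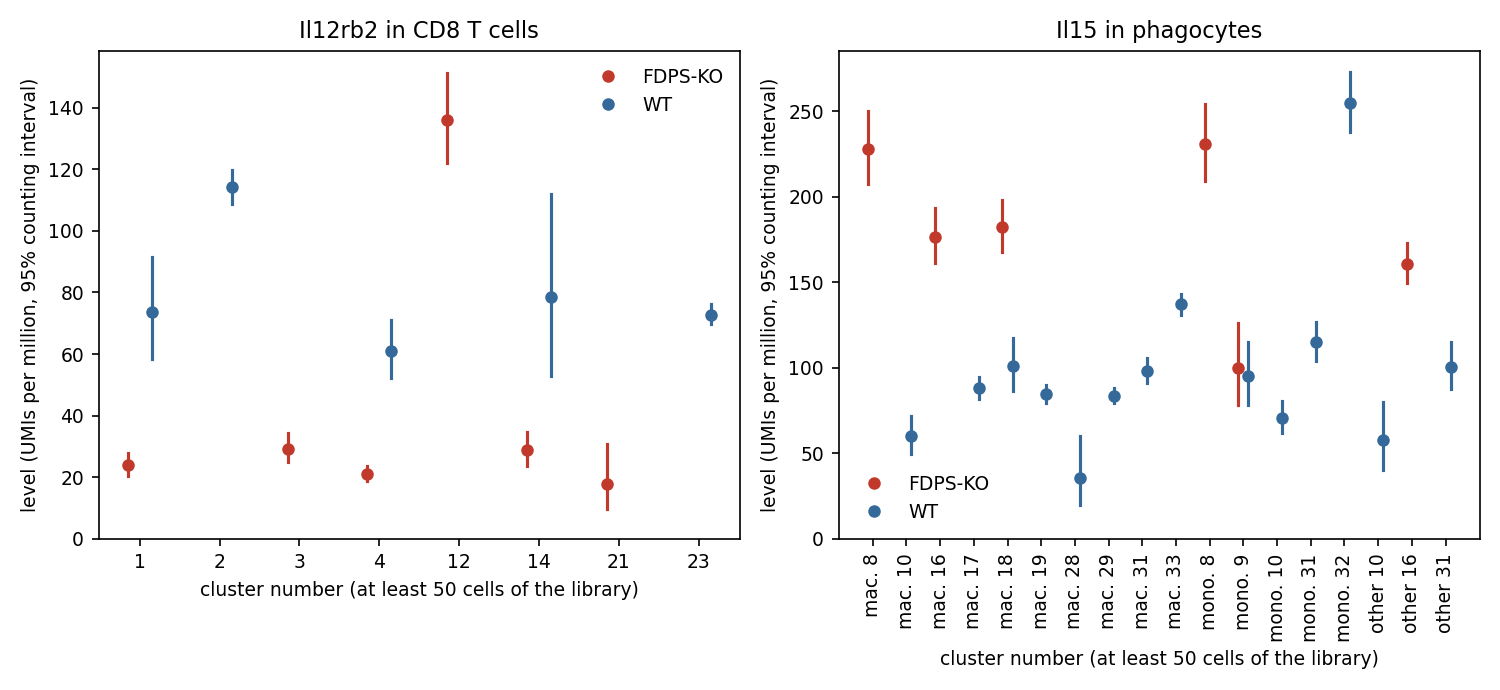
Il12rb2 in CD8 T cells (left) and Il15 in phagocytes (right) by expression cluster, in CPM with 95% counting intervals, FDPS-KO left of WT, for clusters with at least 50 cells of that type in the library. Il12rb2 is lower in FDPS-KO in the 3 CD8 clusters that both libraries fill (1, 4 and 14), and 136 CPM in FDPS-KO cluster 12. Il15 is higher in FDPS-KO in macrophage cluster 18 and similar in monocyte cluster 9.

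Il15ra, which presents IL-15, was highest in mature DCs, where it stood at 493 CPM (460 to 527) in FDPS-KO and 358 CPM (334 to 383) in WT, a ratio of 1.38 (1.25 to 1.52). The same mature DCs carried both genes: after thinning, 82.4% of FDPS-KO and 72.3% of WT mature DCs with Il15 had Il15ra, against 50% and 51.1% of those without. In cDC1 the levels of Il15ra were 36.5 and 22.5 CPM, and in cDC2 27.9 and 24.3 CPM. In monocytes they were 49.6 CPM in FDPS-KO and 68.1 CPM in WT, with a ratio of 0.728 (0.617 to 0.855), and in macrophages 28.0 and 28.7 CPM. Other phagocytes had 18.0 CPM (14.8 to 21.8) in FDPS-KO and 52.2 CPM (45.5 to 59.7) in WT, a log2 ratio of -1.31, and with like-span genes subtracted -1.30. There 68.2% of the FDPS-KO cells lay in cluster 16, at 9.94 CPM, and 44.8% of the WT cells in cluster 31, at 54.7 CPM. In macrophages of cluster 18, Il15ra stood at 31.5 CPM in FDPS-KO and 21.0 CPM in WT. In macrophages with a Cd163 UMI it ran the other way, at 16.6 and 26.3 CPM. Some markers of other cell types also differed in other phagocytes: the 3 erythroid markers summed to 3.17 CPM in FDPS-KO and 1144 CPM in WT, the 3 fibroblast markers to 5.68 and 386 CPM, the 5 neutrophil markers to 28.7 and 98.1 CPM and the 6 B cell markers to 5.84 and 35.5 CPM. Their part in the Il15ra and Il27ra values of other phagocytes was not tested.

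In cDC1, 3 of 5 genes compared (Il12rb2, Il15 and Il2rg) were called higher, where 3.06% of 8234 genes were, and 0 lower, where 0.704% were. Their median log2 ratio was 1.09, and that of all genes 0.09. These shares are over genes of every span, and in cDC1 the longest 25% of genes had a median log2 ratio of 0.43. With like-span genes subtracted, the long genes Il12rb2 and Il15 stood at 0.76 and 0.79, both under a call. Il2rg then stood at 1.55, but at 0.19 after thinning, a run described below. In other phagocytes 1 of 7 (Il27ra) was called higher and 1 (Il15ra) lower, where 6.33% and 8.3% of 8311 genes were. None was called in cDC2 (of 5, background 3.41% higher and 1.7% lower), in monocytes (of 6, 4.88% and 3.33%) or in macrophages (of 6, 6.44% and 4.71%).

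**Figure D5:**
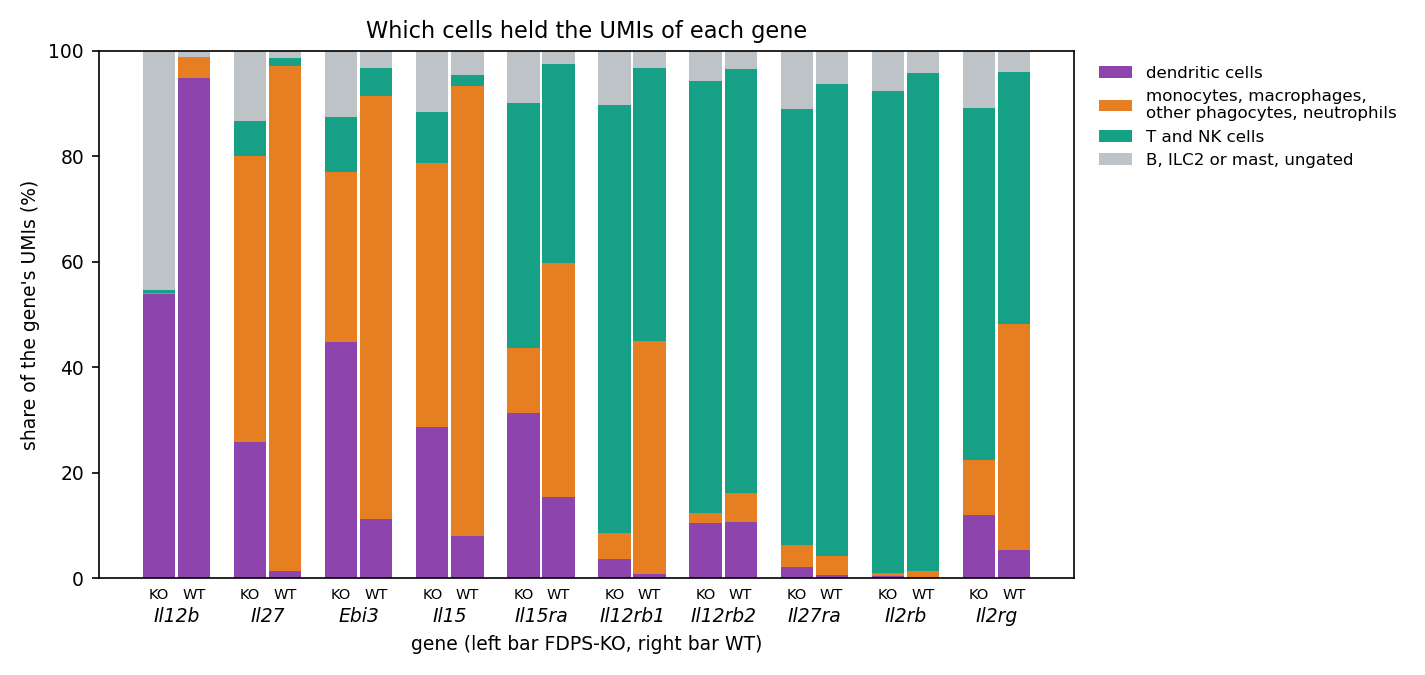
Share of each gene's UMIs held by DCs, phagocytes, T and NK cells and the remaining cells, in percent, with the FDPS-KO bar left of the WT bar. Phagocytes hold 80.2 to 95.8% of Ebi3, Il15 and Il27 UMIs in WT and 32.2 to 54.1% in FDPS-KO. The grey part of the FDPS-KO Il12b bar is mainly the 1 cell with 1379 UMIs.

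On the receptor side, Il12rb2, the signalling chain of the IL-12 receptor, was highest in NK cells. It stood at 258 CPM (247 to 270) in 720 FDPS-KO and 300 CPM (277 to 325) in 245 WT NK cells, a ratio of 0.860 (0.786 to 0.941). CD4-CD8- T cells (T cells gated on neither marker) had 168 CPM in FDPS-KO and 186 CPM in WT. In CD8 T cells it was called lower, at 33.1 CPM (31.3 to 35.0) in 2199 FDPS-KO and 85.5 CPM (82.9 to 88.1) in 1839 WT cells, a ratio of 0.388 (0.363 to 0.413) and a log2 ratio of -1.25. With like-span genes subtracted it was -1.81, and with cells thinned -0.97, just short of a call. A UMI was seen in 21.6% of FDPS-KO and 58.0% of WT CD8 T cells, with median depths of 12524 and 21100 UMIs, in 8.90% and 19.1% after thinning, and in 1.63% and 0.694% of B cells. Of the 6 genes compared in CD8 T cells, 1 (Il12rb2) was called lower, where 1.76% of 8259 genes were, and 0 higher, where 4.4% were.

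The CD8 T cells of the libraries lay in different clusters, and Il12rb2 was lower in FDPS-KO within those that both filled. It stood at 24.0 and 73.5 CPM in cluster 1 (592 FDPS-KO and 129 WT cells), 21.1 and 61.0 CPM in cluster 4 (histone genes, 483 and 138 cells), and 28.8 and 78.5 CPM in cluster 14 (Tcf7, Il7r, 374 and 55 cells). The clusters that held most WT cells, 2 and 23, both led by the granzymes Gzmb and Gzmc, had 114 and 72.8 CPM in WT. FDPS-KO cells of cluster 12 (Klra6, Klra1) had 136 CPM, the highest value of any CD8 cluster. By marker instead of cluster, dividing CD8 T cells had 21.0 CPM in FDPS-KO and 73.8 CPM in WT, non-dividing cells with a Tcf7 UMI 58.4 and 102 CPM, and non-dividing cells with neither Tcf7 nor Gzmc 30.0 and 77.5 CPM. Non-dividing cells with Gzmc and no Tcf7 had 112 CPM in 12 FDPS-KO and 127 CPM in 312 WT cells. CD4 T cells had 76.0 CPM in 665 FDPS-KO and 181 CPM in 60 WT cells, and regulatory T cells 60.3 CPM in 159 and 46.7 CPM in 71, both with fewer than 100 WT cells.

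Il12rb2 also had UMIs in DCs. In mature DCs it stood at 45.6 CPM (36.1 to 56.9) in FDPS-KO and 185 CPM (168 to 203) in WT, a ratio of 0.247 (0.191 to 0.315) and a log2 ratio of -1.91. Detection was 24.2% and 53.2% of mature DCs, and 9.48% and 29.0% after thinning. It was lower in FDPS-KO in each subset of mature DCs named above, with 40.2 and 122 CPM in the cells with more cDC1 list UMIs. In cDC1 it ran the other way, at 24.5 CPM (20.8 to 28.7) in FDPS-KO and 8.05 CPM (5.21 to 11.9) in WT, a log2 ratio of 1.18 that was 0.76 with like-span genes subtracted. In cDC2 it stood at 38.3 and 51.3 CPM. The 6 T cell markers summed to 42.1 CPM in FDPS-KO and 39.4 CPM in WT mature DCs, and their part in the result was not tested.

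Il12rb1, the chain shared by the IL-12 and IL-23 receptors, differed little in lymphocytes. It stood at 28.3 CPM in FDPS-KO and 26.2 CPM in WT NK cells, 23.1 and 26.7 CPM in CD8 T cells, and 22.6 and 22.0 CPM in CD4-CD8- T cells. Regulatory T cells had the highest level among T cells, 53.6 and 45.0 CPM. Macrophages had 7.45 CPM (5.73 to 9.51) in FDPS-KO and 18.2 CPM (17.2 to 19.3) in WT, a ratio of 0.409 (0.313 to 0.527) and a log2 ratio of -0.90 with 5 CPM added, which was not called. By cluster, WT macrophages had 10.1 to 29.2 CPM in 7 clusters and 2.92 CPM in cluster 18, against 7.46 CPM in FDPS-KO macrophages of cluster 18. By marker, macrophages with a Cd163 UMI had 0.518 CPM in FDPS-KO and 25.3 CPM in WT, and those without had 9.45 and 17.6 CPM. With many macrophages in WT, phagocytes held 5.04% of Il12rb1 UMIs in FDPS-KO and 44.1% in WT.

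Il27ra, the IL-27 receptor chain, was mainly in lymphocytes at similar levels. CD4-CD8- T cells had 124 CPM in FDPS-KO and 120 CPM in WT, CD8 T cells 71.5 and 58.7 CPM (82.2 and 84.6 CPM in cluster 1), NK cells 69.1 and 61.4 CPM, CD4 T cells 105 and 97.2 CPM, and B cells 34.2 and 55.4 CPM. In phagocytes it was higher in FDPS-KO. Other phagocytes had 23.0 CPM (19.4 to 27.2) in FDPS-KO and 5.08 CPM (3.14 to 7.76) in WT, a ratio of 4.54 (2.85 to 7.56) and a log2 ratio of 1.48. Macrophages had 10.9 and 1.55 CPM, with a ratio of 7.04 (5.25 to 9.44), and monocytes 5.72 and 0.802 CPM, with a ratio of 7.14 (3.22 to 17.0), both under the minimum level. The highest cluster value was 27.2 CPM in FDPS-KO other phagocytes of cluster 16, and in macrophages of cluster 18 the levels were 10.7 and 0.584 CPM. In macrophages with a Cd163 UMI they were 17.1 and 1.85 CPM. UMIs were seen in 25.4% of FDPS-KO and 4.83% of WT other phagocytes, and in 7.10% and 1.18% after thinning. RNA free in the suspension, of all genes and estimated from T cell genes, was put at 2.62% and 2.94% of other phagocyte UMIs.

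Il2rb, the chain that IL-15 shares with IL-2, and the common gamma chain Il2rg were at like levels in the lymphocytes of both libraries. Il2rb stood at 863 CPM (843 to 884) in FDPS-KO and 906 CPM (865 to 947) in WT NK cells, and 99.2% and 99.6% of them had a UMI. In CD8 T cells it stood at 425 and 431 CPM, a ratio of 0.986, with a lower bound of 0.966, and in CD4-CD8- T cells at 565 and 530 CPM. In CD8 cluster 1 it stood at 512 and 586 CPM. Il2rg stood at 222 and 240 CPM in NK cells, 140 and 147 CPM in CD8 T cells, 206 and 269 CPM in CD4-CD8- T cells and 154 and 147 CPM in B cells. Il2rg in cDC1 was called, with 38.3 CPM (33.7 to 43.5) in FDPS-KO and 13.5 CPM (9.75 to 18.3) in WT, but after thinning each cell to 3000 UMIs its log2 ratio was 0.19 instead of 1.23. It was 1.04 with every cell weighted equally and 1.39 without the cell with most Il2rg UMIs. Thinning was 1 random draw that left few UMIs of this gene in WT cDC1, so it cannot tell depth from sampling there. None of 7 genes was called in NK cells (background 0.809% higher and 1.39% lower), none of 6 in CD4-CD8- T cells (1.41% and 2.86%) and none of 2 in B cells (3.81% and 1.67%).

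The other genes of these pathways were read from 4 lists, without subtracting the median of genes of like span. Of 11 genes that drive the cytokines in source cells, such as the interferon regulatory factors and NF-kappa-B subunits, 1 was called higher and 0 lower in mature DCs, which is near the 7.43% and 5.19% of all genes (median log2 0.07, all genes 0.15). It was Cd40, the receptor through which T cells license DCs, at 728 CPM in FDPS-KO and 335 CPM in WT. Relb, an NF-kappa-B subunit of mature DCs, stood at 1193 and 744 CPM, and the lowest ratios were those of Nfkb1 (661 and 1004 CPM) and Irf8 (707 and 978 CPM). In cDC1, 2 of 11 were called higher, Cd40 (125 and 37.0 CPM) and Relb (84.4 and 31.6 CPM), and 0 lower, where 3.06% and 0.704% of all genes were. The lowest ratios there were those of Myd88 (42.9 and 77.0 CPM) and Irf5 (222 and 316 CPM). In macrophages 1 of 11 was called higher, Batf3 (139 and 58.2 CPM), and 0 lower, where 6.44% and 4.71% of all genes were. Rel (190 and 98.2 CPM) had the next highest ratio, and Irf8 (168 and 272 CPM) and Myd88 (43.6 and 53.8 CPM) had the lowest.

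Of 13 partner genes (other chains of these cytokines and receptors and of the related IL-2, IL-7, IL-18 and IL-21), 6 were compared in mature DCs, 1 was called higher and 2 lower. For each list in this paragraph the shares of all genes in mature DCs were 7.43% higher and 5.19% lower. Il18r1, a chain of the IL-18 receptor, stood at 21.1 and 3.03 CPM, the IL-7 receptor gene Il7r at 82.5 and 363 CPM, and the IL-23 receptor gene Il23r at 11.1 and 49.7 CPM. Il6st, not called, stood at 165 and 96.0 CPM. Of the 9 signal genes (Janus kinases and STATs), 1 was called lower and 0 higher in mature DCs: Stat4, which carries the IL-12 signal, at 457 CPM in FDPS-KO and 1738 CPM in WT, a log2 ratio of -1.92. Stat3 stood at 575 and 881 CPM, Jak1 at 259 and 147 CPM and Tyk2 at 160 and 92.1 CPM. Of 17 response genes, 9 were compared in mature DCs. Of these, 2 were called higher (Tbx21 at 47.4 and 9.08 CPM, and Il18r1, the same call as in the partner list). Another 3 were called lower, Osm (4.68 and 28.1 CPM), Cish (5.85 and 24.2 CPM) and Socs1 (20.5 and 54.1 CPM).

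In CD8 T cells, whose WT cells lay mainly in the clusters 2 and 23 led by Gzmb and Gzmc, the list genes were read over all cells of the type and not by cluster. Their ratios were not corrected for span, and the longest 25% of genes had a median log2 ratio of 0.56 there. Of 14 response genes compared, 2 were called higher and 3 lower, where 4.4% and 1.76% of all genes were (median log2 0.25, all genes 0.14). Bcl2, a survival gene, stood at 296 CPM in FDPS-KO and 95.2 CPM in WT and Pim2 at 35.0 and 11.6 CPM, whereas the killing genes Prf1 and Gzmb stood at 182 and 959 CPM and at 358 and 1753 CPM. Ifng, the interferon-gamma gene, was the other one called lower, at 133 and 288 CPM. Of 6 partner genes, 2 were called higher, Il7r (171 and 39.1 CPM) and Il6st (50.3 and 18.3 CPM), the second chain of the IL-27 receptor, and 1 lower, Il2ra (36.7 and 102 CPM). Il21r had the next lowest ratio, at 147 and 123 CPM. Of 9 signal genes none was called; Jak2 (124 and 60.3 CPM) and Stat4 (458 and 235 CPM) had the highest ratios, and Stat3 (333 and 592 CPM) and Jak3 (33.3 and 43.7 CPM) the lowest. In NK cells 0 of 15 response genes were called higher and 2 lower, where 0.809% and 1.39% of all genes were, Gzmb (272 and 1653 CPM) and the STAT3 inhibitor gene Socs3 (8.06 and 21.9 CPM). Tbx21 (359 and 226 CPM) and Il18r1 (592 and 399 CPM) had the highest ratios there. In CD4-CD8- T cells 0 of 15 were called higher and 3 lower, where 1.41% and 2.86% of all genes were, the lowest being Gzmb (26.7 and 189 CPM) and Ifng (25.4 and 89.2 CPM). Tbx21 (243 and 151 CPM) and Pim2 (117 and 79.3 CPM) had the highest.

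The genes most like each of 5 members over the 20 points of type and library were found by Pearson's r of log2 levels among 9752 genes, a description in which types of a library share its depth. For Il12b they were Gm37422, Pla2g4f and Nudt17, a marker used in the mature DC gate (r from 0.996 to 0.998). Il12b was high only at the mature DC points, so these r values rest mainly on them. For Il15 they were Synj1, Rufy3 and Rtn4 (0.926 to 0.937), and for Il27 N4bp1, Fmn1 and Dram1 (0.889 to 0.896). For Il12rb2 they were 4930581F22Rik, Tnfrsf18 and Klrd1 (0.883 to 0.898), and for Il2rb Ctsw, Ctla2a and Xcl1 (0.990 to 0.996).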

How the data were processed

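The authors deposited whole-number UMI counts for each gene in each barcode. Per the file headers, Cell Ranger 7.2.0 made them, on mm10, per the submitters' processing notes. The genes and gene lists were chosen with earlier results of these data known. Barcodes with at least 200 genes and under 10% mitochondrial UMIs were kept. Scrublet's automatic threshold marked 0% of FDPS-KO and 1.52% of WT barcodes, so the highest doublet scores were removed at 0.8% per 1000 barcodes (635 and 820). Cells were gated by marker scores; the gate limits were set after seeing the data, from a comparison with clusters and not from the genes reported. Clusters came from Leiden clustering at resolution 2. UMIs were summed per type and library, scaled to CPM, and compared as log2 of CPM plus 5 where both libraries had at least 100 cells and their mean was at least 10 CPM, with a call at 2-fold. With 1 library per group there are no replicates, so no p-value was computed. All 10 genes are named. Of each list described in a type the 2 highest and 2 lowest ratios are named, besides genes called. In CD4-CD8- T cells not every called response gene is named. Shares were repeated with cells thinned to 3000 UMIs, leaving out 359 FDPS-KO and 319 WT cells below that. Free RNA was estimated from C1q genes in lymphocytes and T cell genes in myeloid cells. Python 3.11.15, numpy 2.4.6, scipy 1.17.1, pandas 2.3.3, scanpy 1.11.5 and matplotlib 3.10.9 were used, and the calculations were tested on simulated data.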

Additional observations from a re-analysis of the deposited data

Results flagged for a closer look

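Il12rb2 ran in opposite directions in 2 types of DC: its log2 ratio of FDPS-KO over WT was -1.91 in mature DCs and 1.18 in cDC1. With 1 library per group the difference between these ratios was not tested. Cells outside the gated types held Il12b in FDPS-KO: 1582 UMIs, against 17 in the ungated WT cells, and 1379 of the 1582 came from 1 cell of the mature DC cluster.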

How the results depend on the processing

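No paired analysis was possible because each group had 1 library, and for the same reason no replicate could be left out. Of other settings, 15 were listed at the outset and 2 were chosen after seeing the data (every cell weighted equally, and the cell with most UMIs of the gene left out). Apart from those that alter only the minimum level or the call, they gave 774 values for the 57 pairs. The shift from the reported log2 ratio was within the width of the ratio's counting interval for 693 values and beyond it for 81. Of all these values, 0 changed the sign of a called pair. The count of pairs at least 2-fold higher, 5, was 1 with a stricter gate (Il15 in macrophages, at 198 CPM in FDPS-KO and 95.8 CPM in WT), 2 with a mitochondrial limit of 5%, 3 with a minimum of 20 CPM, 3 with the like-span median subtracted and 11 at 1.5-fold. The count at least 2-fold lower, 3, was 6 at 1.5-fold. With the stricter gate it was 2, Il12rb2 in CD8 T cells and Il12b in other phagocytes (0.498 CPM in FDPS-KO and 24.1 CPM in WT), and Il27ra in other phagocytes was under the minimum level. The mature DC share of Il12b UMIs in FDPS-KO, 53.7%, was 50.3% with the stricter gate, 98.8% with clusters, 40.03% with the 5% limit, 88.8% without dividing cells, 79.0% after thinning and 88.7% without the highest cell. The run without dividing cells also left out that highest cell, and the clusters counted it as a mature DC. In WT, 94.4%, it was 61.3% with the stricter gate, 95.8% with clusters and 87.0% with doublets kept. The stricter gate left under 100 mature DCs and cDC1 in a library, and the mitochondrial limit of 5% left under 100 cDC1. Clusters left under 100 other phagocytes in WT. These types have no value in those runs, so calls in them were not evaluated there, which lowers the counts above. The cause of the other shifts was not tested. Il27 and Il12rb2 in mature DCs and Il27ra in other phagocytes passed 2-fold in 13 of 13 alternatives, Il12rb2 in CD8 T cells in 13 of 14, Il15ra in other phagocytes in 12 of 13 (-0.94 with the stricter gate), and in cDC1 Il12rb2 in 10 of 12, Il2rg in 9 of 12 and Il15 in 8 of 12.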
